A study of Rattus norvegicus with 23 samples.

Results

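Red blood cell transcripts were followed in rat kidney through the genes Hbb, Hba-a3 and Alas2, chosen by gene symbol. A probe set was counted for a gene only where the array annotation gives it that symbol alone, which left 1 probe set for each of these 3 genes, out of 14217 genes on the array. RNA from the kidneys of 23 males of 2 Sabra rat strains, with or without the loss of a kidney, was read on Affymetrix arrays. SBH/y is known as the hypertension-prone strain and SBN/y as the hypertension-resistant one. The groups were 6 SBH/y rats with 1 kidney, 6 SBH/y rats with 2 kidneys, 6 SBN/y rats with 1 kidney and 5 SBN/y rats with 2 kidneys. Rats with 1 kidney had lost the right one by uninephrectomy, and rats with 2 had a sham operation. All rats were on standard chow, were 4 months old, 3 months after surgery, and were killed by exsanguination under ether. The kidneys were snap frozen, and the sources used here do not say whether they were flushed of blood. The labels say nothing of separate animals beyond the sample names, so the p-values cover the spread among these arrays, which may be technical, and their number limits the precision.

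Hemoglobin carries oxygen as a tetramer of alpha-like and beta-like globin chains, each holding a heme group. Hbb encodes an adult beta chain and Hba-a3 an adult alpha chain. Alas2 encodes the erythroid form of 5-aminolevulinate synthase, the first enzyme of heme synthesis, and its paralog Alas1 serves the same step in other tissues. Mature mammalian red cells have no nucleus and make no new RNA, but reticulocytes, the youngest circulating red cells, still hold much globin and Alas2 mRNA. Globin mRNA in a solid organ is for this reason often read as a trace of blood left in the vessels. In whole tissue, fewer cells of a type and less RNA per cell cannot be told apart.

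The genes lie on 3 different chromosomes, and their promoters are shown because the transcripts moved together from rat to rat. Each sequence runs from 250 bases before to 30 bases after an annotated transcription start, 5′ to 3′ on the gene's strand, from RefSeq on build GRCr8. Capitals mark matches to the letters searched on both strands, which were AGATAA for GATA factors (with T also allowed as its first letter and G as its last), CACCC for erythroid Krüppel-like factors and CCAAT for the CCAAT box. Alas2 lies on the plus strand, Hba-a3 and Hbb on the minus strand.
Alas2 promoter, chrX:22895200-22895479: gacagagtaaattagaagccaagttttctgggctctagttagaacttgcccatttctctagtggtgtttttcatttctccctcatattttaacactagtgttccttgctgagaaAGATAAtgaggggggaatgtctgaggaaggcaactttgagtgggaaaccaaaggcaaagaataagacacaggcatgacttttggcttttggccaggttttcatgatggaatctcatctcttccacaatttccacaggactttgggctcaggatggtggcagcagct
Hba-a3 promoter, chr10:15816914-15817193: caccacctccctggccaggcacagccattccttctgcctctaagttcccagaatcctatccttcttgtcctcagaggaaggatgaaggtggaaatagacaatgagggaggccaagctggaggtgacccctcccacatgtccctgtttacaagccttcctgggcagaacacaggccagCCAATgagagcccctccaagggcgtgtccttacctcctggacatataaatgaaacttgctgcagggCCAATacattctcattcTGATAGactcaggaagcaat
Hbb promoter, chr1:167663692-167663971: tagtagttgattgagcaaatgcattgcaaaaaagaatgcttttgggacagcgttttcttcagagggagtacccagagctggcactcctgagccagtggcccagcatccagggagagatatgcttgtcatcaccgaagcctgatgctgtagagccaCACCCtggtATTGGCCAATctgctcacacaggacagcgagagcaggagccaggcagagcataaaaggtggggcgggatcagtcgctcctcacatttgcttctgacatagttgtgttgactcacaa

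The Alas2 window held 1 GATA match, AGATAA, at position -136, counted from the start. The Hba-a3 window held CCAAT at positions -73 and -7 and TGATAG at position 11. The Hbb window held CACCC at position -95 and CCAAT at position -81, next to its reverse, ATTGG, at position -86. No motif was shared by all 3 windows. Such letters are common, since among 33469 rat promoter windows of 300 bases 30.3% held a GATA match, 54.9% held CACCC and 37.5% held CCAAT. A match describes the letters and is not evidence of a bound factor.

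Signals are given on the log2 scale of the deposited table, and the level of 1 probe set is not read against that of another, since each probe set has its own response. Array medians lay between 4.65 and 4.69. The 4 probe sets of Xist, a transcript of the inactive X chromosome and thus an off signal in male rats, lay between 2.14 and 3.13. Umod of the thick ascending limb, Slc34a1 of the proximal tubule and its endocytic receptor Lrp2 averaged 12.5, 12.2 and 11.4, so the labelled tissue carried its markers. Hbb averaged 11.4, Hba-a3 averaged 9.07 and Alas2 averaged 5.82 over all arrays, all above the Xist range. An Affymetrix probe set ending in x_at, such as that of Hbb, may also capture near-identical transcripts, so the Hbb signal is uncertain among beta-globin copies.

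Hbb had a median of 11.09 in SBH/y rats with 1 kidney (10.72 to 11.36) and of 11.48 in SBN/y rats with 1 kidney (11.40 to 11.89). With 2 kidneys its median was 11.23 in SBH/y rats (10.77 to 11.72), against values of 11.87, 11.80, 11.56, 11.87 and 11.83 in the 5 SBN/y rats. All 6 SBH/y rats with 1 kidney thus lay below all 6 SBN/y rats with 1 kidney. With 2 kidneys 4 of 6 SBH/y rats lay below the lowest SBN/y rat, and the groups overlapped. The lowest of the 23 rats for this beta-globin signal was an SBH/y rat with 1 kidney, and the highest was an SBN/y rat with 1 kidney.

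Hba-a3 had a median of 8.63 in SBH/y rats with 1 kidney (8.34 to 9.15) and of 9.28 in SBN/y rats with 1 kidney (8.96 to 9.62). With 2 kidneys its median was 8.73 in SBH/y rats (8.42 to 9.25), against 9.69, 9.55, 9.20, 9.86 and 9.58 in SBN/y rats. This alpha-globin signal was lower in most SBH/y rats, but the strains overlapped at both kidney numbers.

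Alas2 had a median of 5.39 in SBH/y rats with 1 kidney (5.02 to 5.79) and of 6.07 in SBN/y rats with 1 kidney (5.97 to 6.53). With 2 kidneys its median was 5.40 in SBH/y rats (5.23 to 5.83), against 6.44, 6.15, 5.94, 6.59 and 6.37 in SBN/y rats. Every SBH/y rat lay below every SBN/y rat of the same kidney number, and the highest SBH/y value, 5.83, was also below the lowest SBN/y value, 5.94, whatever the kidney number.

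**Figure D1:**
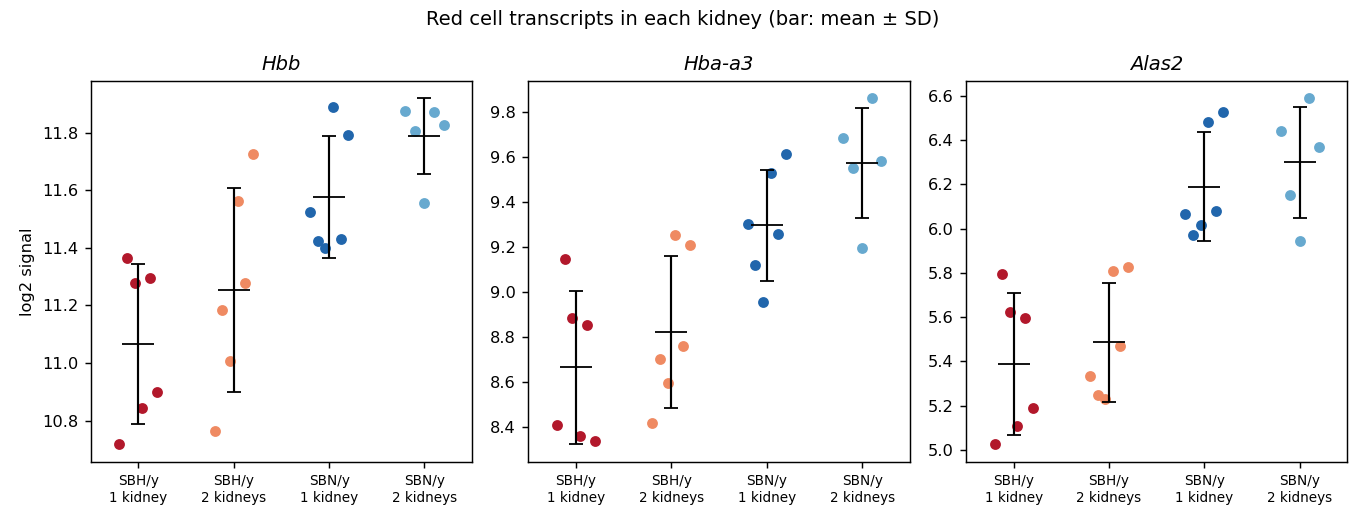
Signal of the 3 red cell genes (y axis, log2 signal, a separate scale for each gene) in each rat, by strain and kidney number on the x axis. Points are rats, and bars give the mean ± SD of 6, 6, 6 and 5 rats from left to right. For Alas2 all SBH/y points sit at or below 5.83 and all SBN/y points at or above 5.94, while for Hbb and Hba-a3 the strains with 2 kidneys overlap.

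All 3 transcripts were lower in SBH/y than in SBN/y kidneys with 2 kidneys. Hbb averaged 11.25 ± 0.35 in SBH/y and 11.79 ± 0.13 in SBN/y rats (SD, n = 6 and 5), a log2 difference of -0.53 ± 0.14 (standard error of the limma fit, as for all differences below) with an adjusted p of 0.0126, or 0.691 times the SBN/y level. Hba-a3 averaged 8.82 ± 0.34 in SBH/y and 9.58 ± 0.24 in SBN/y rats, a difference of -0.75 ± 0.16 with an adjusted p of 0.00170 from the same fit, or 0.594 times. Alas2 averaged 5.49 ± 0.27 in SBH/y and 6.30 ± 0.25 in SBN/y rats, a difference of -0.81 ± 0.15 with an adjusted p of 0.000287, or 0.569 times. Over the whole array 4.75% of probe sets were called lower and 4.32% higher in this comparison (9.07% in all), and 177 of 31042 probe sets had a more negative difference than Alas2. For 1 of the 3 genes, Alas2, the groups did not overlap, which held in this direction for 3.84% of probe sets.

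The same order of strains was seen with 1 kidney. Hbb averaged 11.07 ± 0.28 in SBH/y and 11.58 ± 0.21 in SBN/y rats (SD, n = 6 each), a difference of -0.51 ± 0.13 with an adjusted p of 0.00850 by limma. Hba-a3 averaged 8.66 ± 0.34 in SBH/y and 9.30 ± 0.25 in SBN/y rats, a difference of -0.63 ± 0.15 with an adjusted p of 0.00388. Alas2 averaged 5.39 ± 0.32 in SBH/y and 6.19 ± 0.25 in SBN/y rats, a difference of -0.80 ± 0.14 with an adjusted p of 0.000128. The levels in SBH/y kidneys were 0.702, 0.645 and 0.574 times those in SBN/y kidneys for Hbb, Hba-a3 and Alas2. Of all probe sets 6.43% were called lower and 7.55% higher, or 14% in all. The groups did not overlap for 2 of the 3 genes, Hbb and Alas2, against 3.68% of all probe sets in this direction.

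Loss of a kidney moved none of the 3 transcripts past the test in either strain. In SBH/y rats, 1 minus 2 kidneys gave -0.19 for Hbb (95% interval -0.46 to 0.09), -0.16 for Hba-a3 (-0.47 to 0.15) and -0.10 for Alas2 (-0.38 to 0.19), with adjusted p of 0.565, 0.704 and 0.834 by limma. In SBN/y rats it gave -0.21 for Hbb (-0.50 to 0.08), -0.28 for Hba-a3 (-0.60 to 0.05) and -0.11 for Alas2 (-0.41 to 0.19), with adjusted p of 0.818, 0.762 and 0.951. The estimates lay below 0 for all 3 genes in both strains, with intervals that held 0. Over the array 5.04% of probe sets were called in SBH/y rats (3.06% higher, 1.97% lower) and 0.168% in SBN/y rats (0.0838% in each direction), and 0 of the 3 genes had groups that did not overlap, against 1.03% and 0.625% of probe sets in the lower direction. At an unadjusted p under 0.05 the count was 0 of 3 in each strain too. The lowest bound, -0.60 for Hba-a3 in SBN/y rats, is close to the strain difference of this gene with 1 kidney, so a fall of that size is not excluded by these numbers of rats. The comparisons of strain and of kidney number share their groups, so their values are not independent of each other.

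The difference between the strains in their response to uninephrectomy was 0.02 for Hbb (95% interval -0.38 to 0.42), 0.12 for Hba-a3 (-0.33 to 0.57) and 0.01 for Alas2 (-0.41 to 0.43). None of the 3 passed the test, with adjusted p from 0.952 to 0.997 by limma and 0 of 3 at an unadjusted p under 0.05, and 0.254% of all probe sets did. These intervals are wide next to the responses themselves.

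Adult globin mRNA was also read by 5 probe sets that the annotation assigns to several globin genes at once, so no single gene is named for them. Of these, 3 belong to the alpha family and 2 to the beta family. In SBH/y against SBN/y rats, all 3 alpha probe sets were lower with 1 kidney (differences of -0.51 to -0.42, adjusted p at most 0.0105 by limma) and with 2 kidneys (-0.60 to -0.44, adjusted p at most 0.00967). Of the 2 beta probe sets, 1 was lower with both kidney numbers. The other gave -0.18 with 1 kidney and -0.31 with 2, with adjusted p of 0.616 and 0.389. It also had the largest spread within groups of all adult globin probe sets, an SD of 0.347. After uninephrectomy 0 of the 5 passed the limma test in either strain, and 0 had an unadjusted p under 0.05. Of all probe sets 6.43% were called lower in SBH/y than in SBN/y rats with 1 kidney and 4.75% with 2. After uninephrectomy 5.04% were called in SBH/y rats and 0.168% in SBN/y rats.

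**Figure D2:**
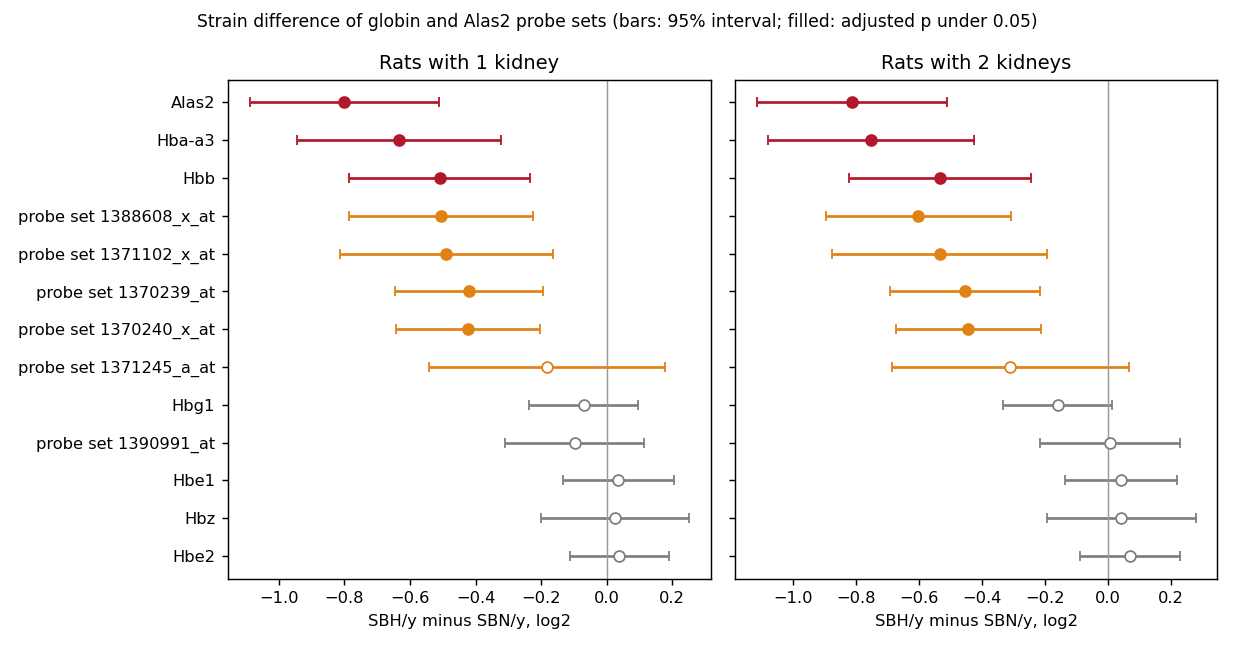
Difference SBH/y minus SBN/y (x axis, log2) of each globin and Alas2 probe set, in rats with 1 kidney (left) and with 2 kidneys (right). Points are limma estimates with 95% intervals, filled where the adjusted p is under 0.05. Red marks the 3 genes with a probe set of their own, orange the 5 adult globin probe sets of several genes, of which 4 are filled in each panel, and grey the embryonic and theta globins, all open and near 0.

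The embryonic and theta globins passed the test in no comparison. These genes, which rodents use before birth or at low levels, were read by 5 probe sets. In the strain comparisons their differences lay between -0.10 and 0.04 with 1 kidney and between -0.16 and 0.07 with 2, and 0 of 5 were called in any comparison by limma or had an unadjusted p under 0.05. Of all probe sets 14% were called between the strains with 1 kidney and 9.07% with 2. Hbg1 averaged 2.75 and Hbe1 2.88, within the Xist range, and Hbe2 at 3.14 and Hbz at 3.34 lay just above it. A difference in such dim probe sets could be missed. Cygb, cytoglobin of fibroblast-like cells, was higher in SBH/y than in SBN/y rats with 1 kidney by 0.46 ± 0.09 (adjusted p 0.000601) and rose after uninephrectomy in SBH/y rats by 0.39 ± 0.09 (adjusted p 0.00986). Mb and Ngb, the globins of muscle and nerve, changed in no comparison past the test.

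Within each group the 3 genes ranked the rats in nearly the same order. Over the deviations of 23 rats from their group means, Hbb and Hba-a3 correlated with Pearson's r of 0.928 and Spearman's rho of 0.935. Hbb and Alas2 gave r of 0.894 and rho of 0.917, and Hba-a3 and Alas2 gave 0.937 and 0.910. For the 3 pairs tested, permutation within groups gave a two-sided p of 1e-05 for r and for rho, the smallest that 100000 resamples can give, and 1e-05 after Benjamini-Hochberg adjustment over the pairs. Leaving out the 2 rats farthest from the median of the first gene of each pair gave r of 0.926, 0.951 and 0.920. Within single groups r lay between 0.865 and 0.991. The 5 adult globin probe sets of several genes followed the same order, with r of 0.817 to 0.989 and a median of 0.930 over the 28 pairs of 8 probe sets. All values of a rat come from the same array and share its normalization.

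**Figure D3:**
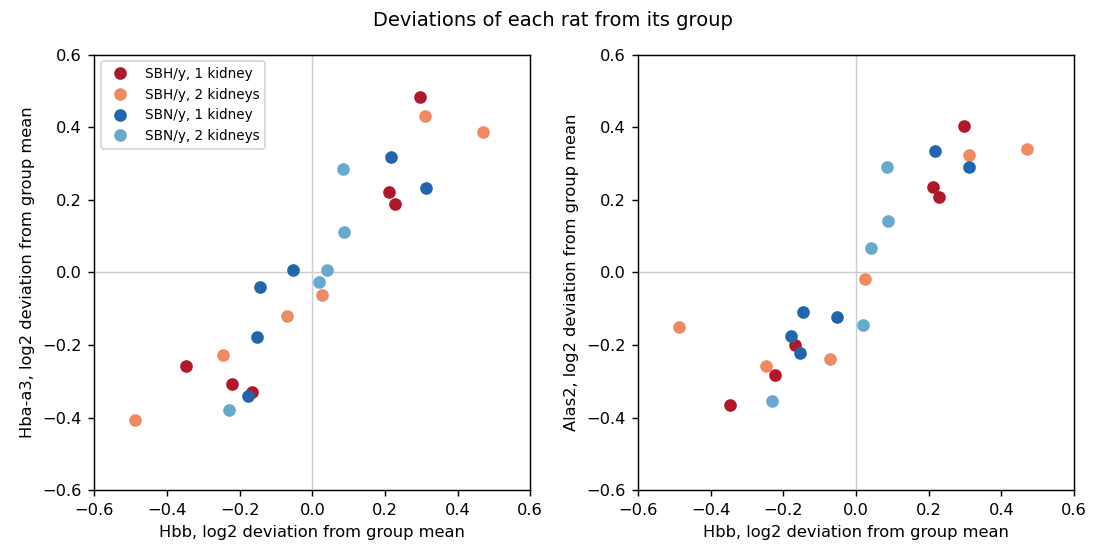
Deviation of each rat from its group mean for Hbb (x axis, log2) against Hba-a3 (y axis, left) and Alas2 (y axis, right). Points are the 23 rats, coloured by group. The points rise together in both panels, with Pearson's r of 0.928 and 0.894.

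The rats of a group differed more in these transcripts than in most others. The within-group SD was 0.262 for Hbb, 0.299 for Hba-a3 and 0.275 for Alas2, against a median of 0.131 over all probe sets, and 98.6%, 99.3% and 98.9% of probe sets had a smaller one. Between the lowest and the highest rat of a group Hbb spanned 1.56-fold in SBH/y with 1 kidney, 1.94-fold in SBH/y with 2, 1.40-fold in SBN/y with 1 and 1.25-fold in SBN/y with 2. The rats at the ends of these ranges recurred from gene to gene. Replicate 2 of SBH/y with 1 kidney was the highest of its group on all 8 adult globin and Alas2 probe sets, and replicate 3 of SBN/y with 2 kidneys was the lowest of its group on all 8. The array of that SBH/y rat also had the highest GAPDH 3′ less 5′ signal of all, a sign of RNA quality, at 0.721 against 0.417 to 0.596 in the rest of its group. In SBN/y with 1 kidney replicate 3 was the lowest on 7 of 8, and Alas2 was lowest in replicate 2.

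The mean of the 3 log2 signals served as a red cell measure of each rat. It averaged 8.37 ± 0.31 in SBH/y rats with 1 kidney, 8.52 ± 0.31 in SBH/y rats with 2, 9.02 ± 0.23 in SBN/y rats with 1 and 9.22 ± 0.21 in SBN/y rats with 2 (SD, n = 6, 6, 6 and 5). Of its variance over the 23 rats, 66.0% lay between the 4 groups and 61.7% between the strains. The neighbours in this order that share a strain differed by less than their SD. It is a relative measure, since no file counts red cells or gives a volume of blood.

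The difference between the Alas2 and Hbb signals of each rat has no meaning as a level, so only its change between groups is described, with no test. Alas2 minus Hbb averaged -5.68 ± 0.06 in SBH/y rats with 1 kidney (-5.74 to -5.57) and -5.39 ± 0.07 in SBN/y rats with 1 kidney (-5.46 to -5.27), with no overlap. With 2 kidneys it averaged -5.77 ± 0.18 in SBH/y (-5.94 to -5.43) and -5.49 ± 0.15 in SBN/y rats (-5.65 to -5.28), with overlap. The Alas2 signal was thus farther below its SBN/y level than the Hbb signal was in SBH/y rats. As each probe set has its own response, this need not hold for the amounts of RNA. Hbb minus Hba-a3 averaged 2.40 ± 0.12 in SBH/y and 2.28 ± 0.11 in SBN/y rats with 1 kidney, and 2.43 ± 0.09 in SBH/y and 2.21 ± 0.13 in SBN/y rats with 2.

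Other genes of heme synthesis moved in both directions between the strains. Of 11 measured genes, 2 were higher and 6 lower in SBH/y rats with 1 kidney, and 1 was higher and 4 lower with 2 kidneys, with medians of -0.17 and -0.08 against -0.01 and 0.00 for all probe sets. Over the array 7.55% of probe sets were called higher and 6.43% lower with 1 kidney, and 4.32% and 4.75% with 2. Alas1, the housekeeping paralog of Alas2, was lower, with differences of -0.84 ± 0.10 with 1 kidney (adjusted p 4.12e-07) and -0.77 ± 0.10 with 2 (adjusted p 5.25e-06). Cpox, which makes protoporphyrinogen, was lower, at -0.39 ± 0.12 and -0.63 ± 0.12 (adjusted p 0.0234 and 0.000699), and Urod, an earlier enzyme of the pathway, was lower at -0.24 ± 0.05 and -0.27 ± 0.05 (adjusted p 0.00133 and 0.000805). Abcb10, a mitochondrial transporter needed for heme synthesis, was higher by 0.79 ± 0.07 and 0.70 ± 0.07 (adjusted p 1.5e-09 and 4.81e-08).

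Heme enzymes are made in most cells, not in red cell precursors alone. Within groups the r of the 11 genes with the measure ran from -0.08 to 0.64 with a median of 0.44, where the median over all probe sets brighter than the median one was 0.04. The highest was 0.642 for Fech, which inserts iron into heme, and Fech differed between the strains by only 0.13 ± 0.06 with 1 kidney (adjusted p 0.157). Alas1, which had the most negative strain differences of the 11, had r of 0.212. Abcb10 had r of 0.479 and was higher in SBH/y, opposite to the 3 red cell genes. These correlations are descriptions over 23 rats and carry no test.

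**Figure D4:**
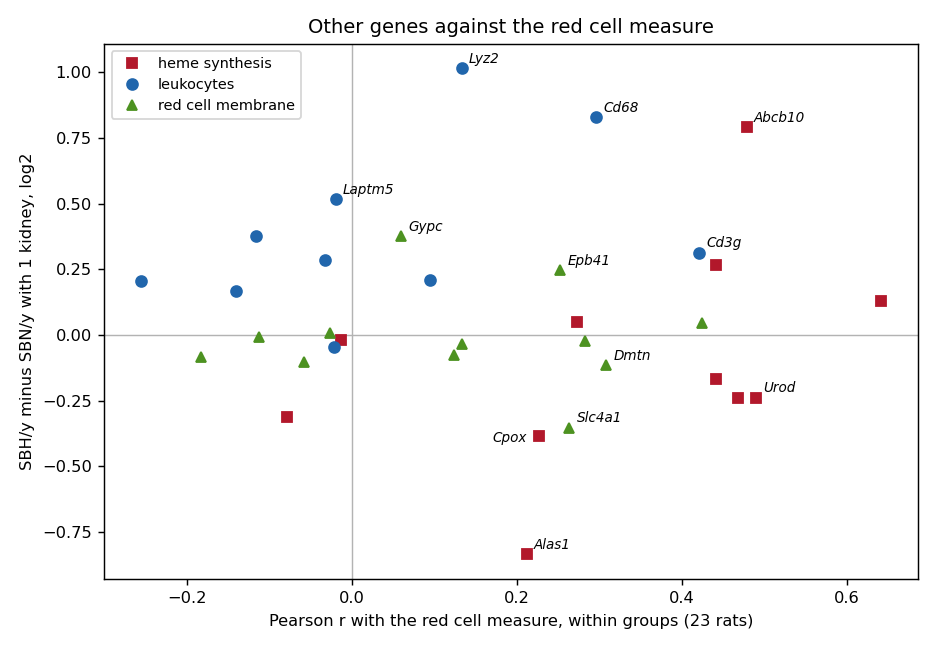
Genes of heme synthesis (squares), leukocytes (circles) and the red cell membrane (triangles): Pearson's r with the red cell measure within groups over 23 rats (x axis) against the difference SBH/y minus SBN/y with 1 kidney (y axis, log2). Labels name up to 4 genes of each list. Lyz2 lies highest at 1.02 and Alas1 lowest at -0.84, and the 11 heme synthesis genes lie on both sides of 0 on the y axis.

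Genes of the red cell membrane were mostly dim, and 7 of 12 measured ones were dimmer on average than the median probe set. Between the strains 2 were higher and 1 lower in SBH/y with 1 kidney, where 14% of all probe sets were called. With 2 kidneys 2 were higher and 0 lower, where 9.07% were called. The median differences were -0.03 and 0.02. Gypc, glycophorin C, was higher by 0.38 ± 0.08 and 0.28 ± 0.08 (adjusted p 0.000848 and 0.0281), and Epb41, the cytoskeletal protein 4.1, by 0.25 ± 0.06 and 0.28 ± 0.07 (adjusted p 0.0071 and 0.00451). Slc4a1, the anion exchanger of red cells and also of collecting duct intercalated cells, was lower in SBH/y with 1 kidney, at -0.35 ± 0.06 (adjusted p 0.00021), and gave 0.03 ± 0.07 with 2. It fell by 0.43 ± 0.06 after uninephrectomy in SBH/y rats (adjusted p 9.68e-05), as did the intercalated cell proton pump subunit Atp6v1b1, which decreased by 0.27 ± 0.07 (adjusted p 0.0296). Dmtn, a band 4.9 protein, also fell there, by 0.23 ± 0.06 (adjusted p 0.0142).

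Transcripts known from reticulocytes were called about as often as the array as a whole. Of 18 measured, 2 were higher and 1 lower in SBH/y rats with 1 kidney, where 14% of all probe sets were called, and 1 was higher and 1 lower with 2, where 9.07% were, and their r with the red cell measure had a median of 0.01. Blvrb, biliverdin reductase B, was lower, at -0.82 ± 0.06 and -0.85 ± 0.06 (adjusted p 3.4e-11 and 6.44e-11), with r of -0.03. Tent5c, a poly(A) polymerase, was higher by 1.21 ± 0.08 and 0.90 ± 0.08 (adjusted p 4.09e-12 and 4.65e-09), with r of 0.03. Isg20, an exonuclease, was higher by 0.30 ± 0.09 with 1 kidney (adjusted p 0.0186), and Ube2o, a ubiquitin ligase of maturing red cells, rose by 0.27 ± 0.08 after uninephrectomy in SBH/y rats (adjusted p 0.0455).

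Regulators of red cell formation were mostly dim as well. Of 10 measured, 7 lay below the median probe set on average. In the strain comparisons 1 was called, Lmo2, where 14% of all probe sets were called with 1 kidney and 9.07% with 2. This transcription cofactor, also used by endothelium, was higher in SBH/y by 0.27 ± 0.06 with 1 kidney and 0.30 ± 0.06 with 2 (adjusted p 0.00118 and 0.00106). Gata1, Nfe2 and Zfpm1 passed in no comparison.

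Genes that clear hemoglobin, heme and iron were called in both directions. Of 17 measured, 1 was higher and 1 lower in SBH/y with 1 kidney, where 14% of all probe sets were called. With 2 kidneys 3 were higher and 1 lower, where 9.07% of all probe sets were called. Blvra, which reduces biliverdin to bilirubin, was higher by 1.19 ± 0.09 with 1 kidney and 1.44 ± 0.09 with 2 (adjusted p 3.63e-11 and 2.38e-12). Slc11a2, an iron importer, was lower, at -0.29 ± 0.06 and -0.25 ± 0.06 (adjusted p 0.000421 and 0.0055). Hmox1, the inducible heme oxygenase, was higher in SBH/y with 2 kidneys by 0.51 ± 0.11 (adjusted p 0.0017), and it rose after uninephrectomy by 0.35 ± 0.10 in SBH/y (adjusted p 0.0436) and by 0.56 ± 0.11 in SBN/y rats (adjusted p 0.0176). Slc40a1, the iron exporter ferroportin, rose in SBH/y rats after uninephrectomy by 0.22 ± 0.06 (adjusted p 0.0278).

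Within groups Hmox1 ran against the red cell measure, with r of -0.506, and so did Hpx, the plasma heme binder hemopexin, with r of -0.501. Over all probe sets the central 95% of r lay between -0.42 and 0.43. These values are descriptions over 23 rats, picked from 17 genes.

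The kidney is the main adult source of erythropoietin, the hormone that drives red cell formation. Epo averaged 2.87, within the Xist range, so its level could not be compared. Of 12 genes of the erythropoietin and hypoxia list, 0 were higher and 4 lower in SBH/y rats with 1 kidney, and 0 were higher and 3 lower with 2, with medians of -0.07 and -0.03. Over the array 7.55% of probe sets were called higher and 6.43% lower with 1 kidney, and 4.32% and 4.75% with 2. Ankrd37, a target of hypoxia-inducible factors, was lower, at -0.55 ± 0.09 and -0.53 ± 0.09 (adjusted p 2.25e-05 and 0.00013), and Pdk1, a kinase that inhibits pyruvate dehydrogenase, was lower at -0.48 ± 0.09 and -0.47 ± 0.09 (adjusted p 0.000173 and 0.000559). Epas1, which encodes the hypoxia-inducible factor that drives Epo, was lower, at -0.18 ± 0.05 with 1 kidney (adjusted p 0.0219). Vegfa, a vessel growth factor, fell by 0.25 ± 0.05 after uninephrectomy in SBH/y rats (adjusted p 0.00176). Their r with the red cell measure had a median of 0.03.

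Markers of other blood cells were read beside the red cell measure. Within groups the r of the list mean with the measure was 0.05 for 8 platelet genes, -0.01 for 7 neutrophil genes and 0.05 for 10 leukocyte genes. The neutrophil genes all lay below the median probe set on average. Their list mean was 2.95 to 3.08 in the 4 groups, within the Xist range. Its r therefore cannot tell whether neutrophils followed the red cell measure. Below the median probe set also lay 4 of 8 platelet genes and 4 of 10 leukocyte genes, which limits what their r can show. By limma 0 of the 7 neutrophil genes were called in any comparison, with 1 or 2 at an unadjusted p under 0.05 in each. Of all probe sets 14% were called between the strains with 1 kidney and 9.07% with 2. Of the platelet genes 1 was called between the strains, Pf4, also made by macrophages, which was lower in SBH/y, at -0.80 ± 0.09 with 1 kidney and -1.25 ± 0.10 with 2 (adjusted p 1.96e-07 and 1.64e-10). Itga2b, Treml1 and Tubb1, platelet genes too, passed in no comparison. After uninephrectomy 1 of the 8 platelet genes was called higher in SBH/y rats, where 3.06% of all probe sets were. The mean of the platelet list ranged from 4.07 to 4.22 in SBH/y and from 4.24 to 4.38 in SBN/y rats with 1 kidney. With 2 kidneys it ranged from 4.01 to 4.21 in SBH/y and from 4.12 to 4.46 in SBN/y rats. These means include Pf4 with its large strain difference. The median strain difference of the 8 genes was -0.06 with 1 kidney, with 3 genes above 0 and 5 below. With 2 kidneys the median was 0.005, with 5 genes above 0 and 3 below.

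Leukocyte genes were mostly higher in SBH/y with 1 kidney, where the red cell genes were lower. With 1 kidney 6 of 10 were higher and 0 lower in SBH/y, and with 2 kidneys 2 were higher and 1 lower. Of all probe sets 7.55% were called higher and 6.43% lower with 1 kidney, and 4.32% and 4.75% with 2. Lyz2, lysozyme of macrophages and neutrophils, was higher by 1.02 ± 0.08 and 0.78 ± 0.08 (adjusted p 2.07e-10 and 1.09e-07), and the macrophage gene Cd68 by 0.83 ± 0.09 and 0.34 ± 0.09 (adjusted p 4.99e-08 and 0.0141). After uninephrectomy 7 of 10 rose in SBH/y and 0 of 10 in SBN/y rats, where 1 had an unadjusted p under 0.05. Of all probe sets 3.06% were called higher after uninephrectomy in SBH/y rats, and 0.168% were called in SBN/y rats. The difference between the strains in this response passed the test for 1 of 10, Cd3g of T cells, where 0.254% of all probe sets did. The mean of the list ranged from 5.79 to 6.16 in SBH/y and from 5.49 to 5.70 in SBN/y rats with 1 kidney, without overlap. How often means of 10 genes part the strains in this way over the array was not examined. With 2 kidneys it ranged from 5.49 to 5.55 in SBH/y and from 5.43 to 5.46 in SBN/y rats. The part of such cells in the red cell values was not tested.

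The few endothelial genes called between the strains were lower in SBH/y. Of 9 endothelial genes 0 were higher and 3 lower in SBH/y with 1 kidney, and 0 were higher and 1 lower with 2. Over the array 14% and 9.07% of probe sets were called in these comparisons. Called or not, 2 of the 9 differences lay above 0 and 7 below with 1 kidney, and 4 lay above and 5 below with 2. The r of the endothelial list mean with the red cell measure was 0.34. Kdr, the VEGF receptor of endothelium, was lower, at -0.32 ± 0.06 with 1 kidney (adjusted p 0.000333), and Vwf, a clotting factor of endothelium, was lower at -0.38 ± 0.10 with 2 (adjusted p 0.0136). After uninephrectomy 2 of 9 fell in SBH/y, Emcn, a sialomucin of capillaries, by 0.31 ± 0.05 (adjusted p 0.00014) and Kdr by 0.26 ± 0.06 (adjusted p 0.00712), and 0 of 9 were called by limma in SBN/y rats, where 2 had an unadjusted p under 0.05. Of all probe sets 1.97% were called lower after uninephrectomy in SBH/y rats, and 0.168% were called in SBN/y rats. The mean of the list ranged from 7.15 to 7.23 in SBH/y and from 7.26 to 7.34 in SBN/y rats with 1 kidney. With 2 kidneys it ranged from 7.24 to 7.37 in SBH/y and from 7.39 to 7.41 in SBN/y rats. The ranges thus did not overlap between the strains at either kidney number, nor between 1 and 2 kidneys in either strain, with the lower values in SBH/y and with 1 kidney. A mean of 9 genes spreads less than single genes, and how often such means part groups over the array was not examined. For single probe sets the share in the lower direction was 3.68% between strains with 1 kidney and 3.84% with 2. It was 1.03% for uninephrectomy in SBH/y and 0.625% in SBN/y rats. The part of endothelium in the red cell values was not tested.

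The kidney epithelial list shares Slc4a1 with the red cell membrane list and Lrp2 with the list of hemoglobin and heme clearance. The calls of Slc4a1 are thus counted in both of its lists. Of 9 kidney epithelial genes 1 was higher and 2 lower in SBH/y with 1 kidney, where 14% of all probe sets were called. With 2 kidneys 1 was higher and 0 lower, where 9.07% were called. Aqp2, the water channel of the collecting duct, was higher in SBH/y by 0.61 ± 0.11 and 0.40 ± 0.12 (adjusted p 0.000253 and 0.0326). After uninephrectomy 3 of 9 fell in SBH/y rats, among them the slit diaphragm gene Nphs1 of podocytes, by 0.42 ± 0.09 (adjusted p 0.0056), and 0 of 9 were called by limma in SBN/y rats, where 1 had an unadjusted p under 0.05. Of all probe sets 1.97% were called lower after uninephrectomy in SBH/y rats, and 0.168% were called in SBN/y rats. The mean of the list ranged from 9.10 to 9.24 in SBH/y rats with 1 kidney and from 9.24 to 9.42 in SBH/y rats with 2, apart by less than the last digit shown. In SBN/y rats it ranged from 9.13 to 9.29 with 1 kidney and from 9.18 to 9.33 with 2. Its r with the red cell measure was 0.19.

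The genes most like the red cell measure within groups, other than globins, were ranked among 9419 genes brighter than the median probe set. The closest was Tor1a, an ATPase of the endoplasmic reticulum, with r of 0.754 over 23 rats. It was followed by Nadsyn1 at 0.702, Ifi35 at 0.690, Inpp5k at 0.689, Ciao3 at 0.681, Ndufaf3 at 0.676, Chn2 at 0.667, Rpp40 at 0.649, Spink1 at 0.647 and Nf2 at 0.647. The adult globin probe sets of several genes had r of 0.876 to 0.970, and 0 other probe sets exceeded 0.8. Of the 10 genes named Spink1 was lower in SBH/y with 1 kidney, at -0.33 ± 0.11 (adjusted p 0.0393), where 14% of all probe sets were called. With 2 kidneys 0 of 10 passed the limma test between the strains, where 9.07% were called.

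Adding the red cell measure of each array to the fit as a covariate changed the number of other probe sets called. With the 8 adult globin and Alas2 probe sets left out, SBH/y against SBN/y gave 2307 calls with the covariate and 4335 without it in rats with 1 kidney, of which 2183 were shared. With 2 kidneys it gave 1301 calls with the covariate and 2810 without, with 1256 shared. For uninephrectomy in SBH/y rats the counts were 1412 and 1563, with 1353 shared, and in SBN/y rats they were 38 and 52, with 35 shared. Because most of the measure's variance lies between the strains, the covariate also takes up part of the strain difference itself, and what each took up cannot be told apart. The 7 leukocyte genes called after uninephrectomy in SBH/y rats were all called, in the same direction, in the fit with the covariate too. In that comparison 86.6% of all calls were kept. Of the 6 leukocyte genes higher in SBH/y than in SBN/y rats with 1 kidney, 4 were kept, where 50.4% of all calls were. Heme synthesis genes called between the strains in both fits numbered 4 with 1 kidney and 2 with 2.

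RNA quality moved with the groups. For GAPDH, whose control probes sit at both ends of the transcript, the 3′ signal less the 5′ signal averaged 0.53 ± 0.11 in SBH/y and 0.45 ± 0.04 in SBN/y rats with 1 kidney, and 0.46 ± 0.06 in SBH/y and 0.35 ± 0.03 in SBN/y rats with 2. Within groups its r with the red cell measure was 0.14. With it as a covariate the strain difference with 1 kidney was -0.54 for Hbb, -0.69 for Hba-a3 and -0.84 for Alas2, with adjusted p of 0.0149, 0.00521 and 0.000357 by limma. With 2 kidneys it was -0.58, -0.83 and -0.87, with adjusted p of 0.0249, 0.00353 and 0.00117.

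Fech, Hpx, Epo, Umod, Slc34a1 and Lrp2 fall outside the rule for named genes and were chosen after their values were seen.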

How the data were processed

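Kidney RNA of 23 rats was measured on 1 Affymetrix array each. Per the submitters' processing notes, the deposited log2 values, 1 per probe set and array, were made by the authors with GCOS and RMA (no versions stated). As RMA equalises the distributions of arrays, a change in total mRNA is not visible. No scan date was known, so batches were not examined. Of 31099 probe sets, 57 controls were left out and 31042 tested: 20826 have 1 gene symbol in the platform annotation, 436 several and 9780 none, and 20758 of those with 1 symbol matched RefSeq (GRCr8). Columns left unused numbered 0.

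Differences were fitted once for all 4 group means with limma 3.58.1 in R 4.3.3 and tested two-sided, with Benjamini-Hochberg adjustment over all probe sets of a comparison and a threshold of 0.05. A gene is called where it passes. Correlations within groups used deviations from group means and 100000 permutations. The genes and the 12 gene lists were chosen with earlier results of these data known. Besides the 3 genes, the text names from each list up to 4 genes of smallest p and the 10 genes most like the red cell measure. The strain comparison with 2 kidneys was simulated over 31042 probe sets. It recovered 93 of 100 probe sets lowered by 0.5 log2 and 100 of 100 lowered by 1 log2, with 9 false calls. The lowered probe sets were drawn at random, and the noise was independent between probe sets. The 3 genes varied more within groups, with SDs of 0.262 to 0.299 against a median of 0.131, so this recovery does not apply to them. Alternatives were quantile normalization done again, dim probe sets left out, trended and robust variances, a fit of the compared groups alone, 1 probe set per gene, the replicate number as a block, the GAPDH and red cell covariates, each array left out, and, chosen after seeing the data, a fit without 2 arrays.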

Additional observations from a re-analysis of the deposited data

Results flagged for a closer look

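In 296 sets of values of a gene or measure in 1 group, 18 had 1 rat set apart from the rest by Dixon's criterion for an outlying value, and chance gives about 1 in 20 such sets. Among the globins, replicate 3 of SBN/y with 2 kidneys had an Hbb signal of 11.56, with the other rats between 11.80 and 11.87, and a signal of 11.61 on an alpha-globin probe set of several genes, with the others between 11.91 and 12.03. The same rat had the highest Aqp2 signal of its group, 10.84. Replicate 1 of SBH/y with 2 kidneys had an Alas2 minus Hbb difference of -5.43, with the others between -5.94 and -5.76, and low signals of Blvrb (5.42) and Ciao3 (6.50).

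Replicate 2 of SBH/y with 1 kidney, the highest of its group for red cell transcripts, was also set apart upward for Ifi35 (7.36) and Nf2 (7.53), both picked for their likeness to the red cell measure that is high in this rat. Its array also had the highest GAPDH 3′ less 5′ signal of the 23, 0.721, and lay at an end of the second principal component, and the part of RNA quality in these values was not tested. In SBN/y with 1 kidney replicate 4 stood above the others for Urod (8.87), Cd68 (5.70) and the neutrophil gene S100a9 (5.39), where the others lay between 3.10 and 3.75. In the same group replicate 3 was low for Dmtn (8.24) and replicate 2 for Hbe1 (2.68). In SBH/y with 2 kidneys replicate 3 was low for Tent5c (5.66) and high for Nfe2 (2.93), replicate 4 was low for Cygb (7.53) and replicate 6 for Treml1 (5.05). In SBH/y with 1 kidney replicate 1 was low for Atp6v1b1 (6.10).

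Among the list genes, Cd3g, a T cell gene, differed between the strains in its response to uninephrectomy by 0.667 log2 (adjusted p 0.00491 by limma): it rose by 0.62 ± 0.08 in SBH/y rats and gave -0.05 ± 0.08 in SBN/y rats.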

How the results depend on the processing

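The strain differences of Hbb, Hba-a3 and Alas2 kept their direction and their call in 186 of 186 results under the alternatives, and the uninephrectomy differences kept their direction and the lack of a call in 186 of 186. Many of these settings could change the call but not the direction. Leaving out an array outside the 2 groups compared, or changing only the variances or the probe sets tested, keeps the estimate as it was. Hbb was nearest to the threshold, with adjusted p up to 0.0411 with 2 kidneys and 0.0321 with 1 kidney when arrays were left out in turn by limma. The interaction, never called, turned its direction in 25 of 90: for Alas2 to -0.00386 after repeated quantile normalization, and without the 2 arrays at the ends of the second principal component (replicate 3 of SBH/y with 2 kidneys and replicate 2 of SBH/y with 1) to -0.0857 for Hbb, -0.12 for Alas2 and -0.0228 for Hba-a3. Leaving out 1 array at a time gave -0.0745 to 0.12 for Hbb, -0.0687 to 0.10 for Alas2 and 0.02 to 0.21 for Hba-a3. The red cell covariate moved the calls over the array to 1301 with 2 kidneys and 2307 with 1. Same-numbered rats correlated between -0.171 and 0.259 over 22 pairs, 6 of them over 0.1. Differently numbered rats were not compared in this way, so whether replicate numbers pair the samples cannot be told. With the replicate block the strain difference with 2 kidneys was -0.57 for Hbb, -0.78 for Hba-a3 and -0.84 for Alas2, and the calls were 3 of 3 for strain and 0 of 3 otherwise. The brightest probe set per gene was not run as an alternative for correlations, since each gene has 1, and the interaction needs all groups. The number of arrays limits small changes, and deposited values give no signal over background.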
